A study of Mus musculus with 24 samples.

Results

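The 38 Hox genes analysed here lie in the 4 mouse Hox clusters and were taken by symbol, as RefSeq protein-coding genes of the mm10 assembly named Hoxa, Hoxb, Hoxc or Hoxd with a number. They were 38 of 21887 protein-coding genes. Of the 39 symbols that match the rule, 1 was not analysed here. A peak was counted at a gene where its summit lay in the gene body or within 1000 bp of either end. CUT&RUN releases the DNA around a protein with a nuclease tethered to an antibody, and was done on kidney cells with an antibody to Sox9, a transcription factor of injured tubules, or to H3K4me3, a histone mark of active promoters that served as the protocol's positive control. The 4 groups were Sox9 at 10 days, Sox9 at 48 h, H3K4me3 at 10 days and H3K4me3 at 48 h after bilateral ischaemia reperfusion injury, with 4 biological replicates each. All mice were males of 9 to 12 weeks and 25 to 30 g with the genotype Sox9IRES-CreERT2/+:R26RtdT/+, and all received tamoxifen at injury. The Cre is driven from the Sox9 locus, so the sorted tdTomato-positive cells are cells with Sox9 activity around the injury and their descendants, and no group was uninjured or without tamoxifen. Pellets of around 100000 cells, fixed in 0.2% PFA, were each divided between the antibodies and an input. The titles give the time. The cell type label names day 10 also for the samples titled 48 h.

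Hox genes encode homeodomain transcription factors that give cells of the embryo their position along the body axis. Their order in a cluster, numbered by paralogue, follows the order of their expression from head to tail, and Polycomb and trithorax proteins keep the clusters silent or active through histone marks. In the kidney the genes of paralogue group 11 act together in the mouse embryo to start nephron formation, and Hoxb7 is expressed in the ureteric bud and its collecting ducts. An active promoter usually carries a broad block of H3K4me3.

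Within the RefSeq promoter windows (250 bases before to 50 after a listed start, GRCm38.p6, 24 windows of 22 of the genes), summits lay in those of 6 genes. The 250 bases before the start of these 6 are shown because theirs are the Hox promoter windows that held a peak summit. They are written 5′ to 3′ on the strand of the gene, and capitals mark the bases inside any peak of the 16 lists. Hoxd1 (chr2:74762730-74762979, plus strand) held the summit of Sox9 48 h replicate 4 in the bases shown, while that of Sox9 48 h replicate 2 lay 39 bases past them in the rest of the window, and Hoxd3 (chr2:74711743-74711992, plus strand) held summits of H3K4me3 10 d replicates 1 and 2.
Hoxd1: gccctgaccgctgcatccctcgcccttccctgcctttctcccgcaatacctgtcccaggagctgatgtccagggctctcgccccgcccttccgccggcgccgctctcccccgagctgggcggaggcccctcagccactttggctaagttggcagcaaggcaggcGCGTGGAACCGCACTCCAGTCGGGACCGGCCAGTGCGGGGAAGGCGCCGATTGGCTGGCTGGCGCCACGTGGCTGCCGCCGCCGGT
Hoxd3: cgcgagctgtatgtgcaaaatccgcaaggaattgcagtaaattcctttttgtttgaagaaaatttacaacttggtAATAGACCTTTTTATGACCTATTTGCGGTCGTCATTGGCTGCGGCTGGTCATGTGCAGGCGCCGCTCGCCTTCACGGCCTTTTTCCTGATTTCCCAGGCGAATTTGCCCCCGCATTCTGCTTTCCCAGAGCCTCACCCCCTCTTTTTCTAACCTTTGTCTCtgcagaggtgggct
The other 4 held a summit of 1 library each. Hoxd10 (chr2:74691641-74691890, plus strand) held one of H3K4me3 10 d replicate 1, and the first capitals there belong to a peak of Sox9 10 d replicate 1 whose summit lay outside the window. Hoxd13 (chr2:74667975-74668224, plus strand) held one of H3K4me3 10 d replicate 2. Hoxa10 (chr6:52240855-52241104, minus strand) held one of Sox9 48 h replicate 2. Hoxc4 (chr15:103034145-103034394, plus strand) held one of H3K4me3 48 h replicate 4.
Hoxd10: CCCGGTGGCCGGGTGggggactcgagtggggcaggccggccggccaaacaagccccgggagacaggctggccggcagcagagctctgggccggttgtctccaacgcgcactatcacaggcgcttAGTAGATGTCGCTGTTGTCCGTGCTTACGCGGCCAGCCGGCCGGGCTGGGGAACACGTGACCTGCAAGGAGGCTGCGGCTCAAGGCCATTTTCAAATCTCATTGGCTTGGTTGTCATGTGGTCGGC
Hoxd13: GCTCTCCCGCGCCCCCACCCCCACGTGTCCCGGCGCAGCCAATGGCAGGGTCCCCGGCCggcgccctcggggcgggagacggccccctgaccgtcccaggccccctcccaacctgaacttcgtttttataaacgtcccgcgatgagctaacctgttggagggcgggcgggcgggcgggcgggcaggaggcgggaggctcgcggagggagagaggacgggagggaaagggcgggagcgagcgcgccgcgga
Hoxa10: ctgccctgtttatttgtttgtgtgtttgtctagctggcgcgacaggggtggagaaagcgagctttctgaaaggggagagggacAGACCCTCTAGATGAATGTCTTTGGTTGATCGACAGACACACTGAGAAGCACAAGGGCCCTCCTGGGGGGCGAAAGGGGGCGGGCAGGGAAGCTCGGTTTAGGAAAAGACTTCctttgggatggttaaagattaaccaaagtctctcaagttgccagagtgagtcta
Hoxc4: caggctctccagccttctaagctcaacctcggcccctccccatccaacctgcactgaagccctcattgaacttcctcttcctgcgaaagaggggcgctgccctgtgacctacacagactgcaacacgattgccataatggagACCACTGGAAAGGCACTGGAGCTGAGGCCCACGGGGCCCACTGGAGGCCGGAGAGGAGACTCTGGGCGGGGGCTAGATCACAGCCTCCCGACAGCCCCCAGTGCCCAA
Of cluster B only Hoxb1, Hoxb4 and Hoxb8 had a listed window, and of cluster C only Hoxc4, so the promoter values are mostly those of clusters A and D. Hox promoters held a Sox9 summit of any library in 2 of 24 windows (8.33%), against 10.6% of 32851 windows of all RefSeq genes. They held an H3K4me3 summit in 4 of 24 (16.7%), against 21.7%. Their GC content averaged 57.5% ± 10.0 (SD over 24 windows), against 53.8% ± 11.3 over all windows, with 17.3 ± 10.7 CpG sites against 12.4 ± 12.4. The Sox-type motif ACAAAG was present on either strand in 6 Hox windows (25.0%), against 18.7% of all windows, and ACAATG in 0 Hox windows, against 12.6%. The homeodomain core TAATTA was in 2 Hox windows (8.33%), against 5.29%, and CGCG in 15 (62.5%), against 38%. The letters of these 4 motifs do not contain one another. A match is a description of the letters and not of binding.

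The lists differed widely in length, with 7724 to 85420 Sox9 peaks and 25824 to 88511 H3K4me3 peaks per library, and the depth of the libraries is unknown. In each list the peak heights, solved from the deposited fold and p-value, came to a whole number of steps (within 0.05), the step being fixed for the list, at 99.8% or more of its peaks. The lowest height, 1 step, was that of 92.5% to 97.8% of peaks. The same pattern held in the Hox clusters. They held 273 peaks, 102 of Sox9 and 171 of H3K4me3, with a median width of 137 bp, and 252 stood at 1 step. The widest was 428 bp, so no block of H3K4me3 as wide as a Hox gene was called. Fewer cells with a mark and less signal per cell cannot be told apart in these pooled cells. How list length and height bear on the values below was not tested beyond the equal-length and 2-step alternatives.

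In most libraries Hox genes held a peak less often per gene than protein-coding genes in general, and more peaks per length of DNA. With Sox9, 16, 1, 8 and 14 of 38 genes held a peak in the 4 libraries of 10 days, against 1, 10, 9 and 11 in those of 48 h. With H3K4me3 the counts were 25, 11, 22 and 12 genes at 10 days, against 9, 14, 12 and 6 at 48 h. The times overlapped for both antibodies. As shares, Sox9 averaged 25.7% ± 17.8 at 10 days and 20.4% ± 12.0 at 48 h (SD, n = 4 each), beside 37.9% ± 15.6 and 25.6% ± 8.42 of all protein-coding genes. H3K4me3 averaged 46.1% ± 18.5 at 10 days and 27.0% ± 9.21 at 48 h (SD, n = 4 each), beside 50.7% ± 14.3 and 38.8% ± 3.49 of all genes. The Hox share was below that of all genes in 7 of 8 Sox9 libraries and 8 of 8 H3K4me3 libraries.

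Hox genes are short, with a median length of 3.72 kb against 17.2 kb for all protein-coding genes. Among genes of at most 3000 bp, a Sox9 peak was present in 15.2% of pairs of a Hox gene and a library (14 genes, 8 libraries) and in 6.78% of such pairs over all 3399 genes of that length. The H3K4me3 values were 28.6% for Hox genes and 11% for all genes. In the class of 3001 to 6000 bp (12 Hox genes) the Sox9 share was 20.8% against 15.1% and the H3K4me3 share 31.2% against 25.1%. In the class of 6001 to 12000 bp (7 Hox genes) it was 30.4% against 20.3% for Sox9 and 44.6% against 32% for H3K4me3. In the class of 12001 to 50000 bp (5 Hox genes) it was 40.0% against 32.3% for Sox9 and 60% against 48.2% for H3K4me3. In each of the 4 length classes the Hox share was the higher one with both antibodies. Lengths within a class were not matched. The shortest Hox gene has 1.78 kb and the shortest of all genes 0.144 kb, and the part of this in the shares was not tested. Hox genes of 1 cluster share peaks and are not independent of each other.

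Counted per length, each cluster being taken from 1000 bp before its first gene to 1000 bp after its last, the 4 clusters together held 2.25 ± 0.675 times the genome-wide peaks per Mb with Sox9 at 10 days and 3.05 ± 1.78 times at 48 h (SD, n = 4 each). The ratio with H3K4me3 was 2.77 ± 0.318 at 10 days and 2.52 ± 0.197 at 48 h (SD, n = 4 each). The merged windows of all protein-coding genes had 1.29 ± 0.0544 times the genome density with Sox9 and 1.29 ± 0.0216 times with H3K4me3 (SD, n = 8 each). The clusters were above the genome in 7 of 8 Sox9 libraries, the exception being 48 h replicate 1 with 1 peak in all clusters and a ratio of 0.717, and in 8 of 8 H3K4me3 libraries. For both antibodies the times differed by less than the larger SD of the pair and by more than the smaller one. Set against all gene windows in place of the genome, the windows of the 38 genes had 1.87 ± 1.05 times the density with Sox9 at 10 days and 2.73 ± 1.42 times at 48 h, and 2.64 ± 0.156 times with H3K4me3 at 10 days and 2.21 ± 0.528 times at 48 h (SD, n = 4 each). This ratio was above 1 in 6 of 8 Sox9 libraries, with 0.421 in 10 d replicate 2 and 0.817 in 48 h replicate 1, and in 8 of 8 H3K4me3 libraries.

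**Figure D1:**
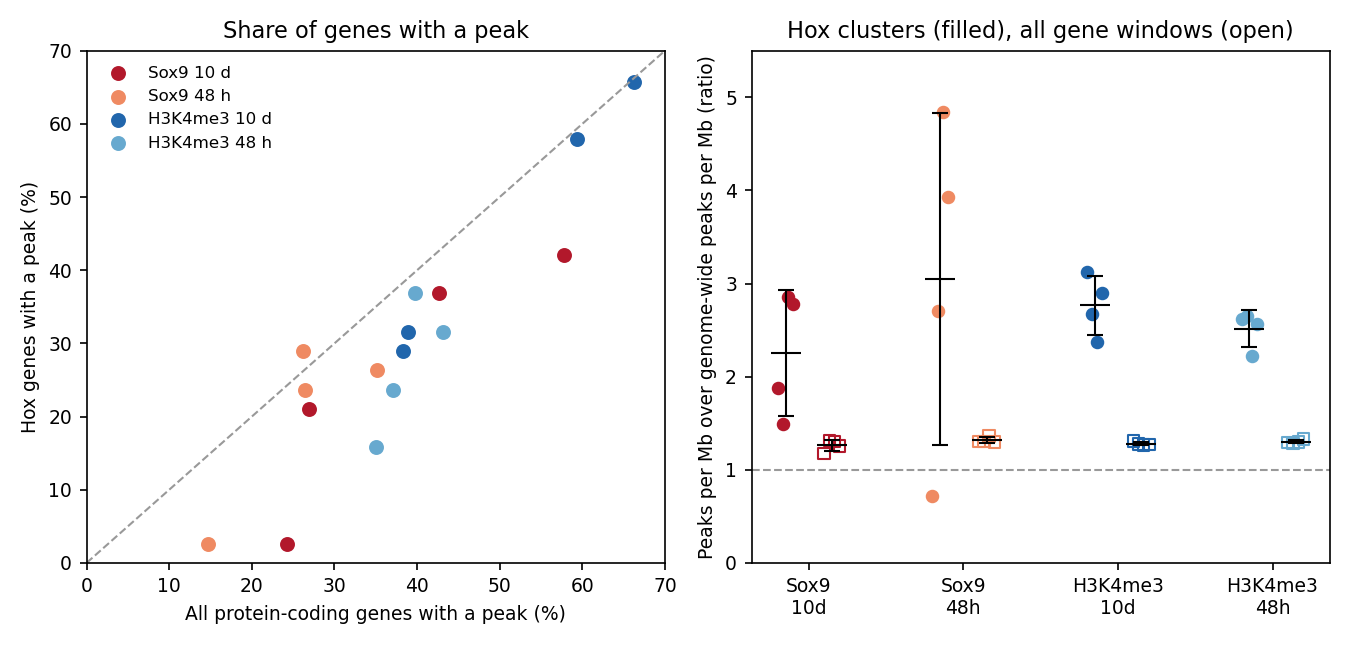
Left, the share of the 38 Hox genes with a peak (y, %) against that of all protein-coding genes (x, %), 1 point per library with the line of equal shares. Right, peaks per Mb over the genome-wide value (ratio) in the Hox clusters (filled) and in all gene windows (open), with mean and SD of 4 libraries. All but 1 library lie below the line on the left, and all but 1 lie above 1 on the right.

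Between genes, a Sox9 peak was present in at least 1 of 8 libraries at 33 of 38 genes (86.8%), against 80% of all protein-coding genes, and in at least 4 of 8 at 5 genes (13.2%), against 29.5%. No Hox gene had one in more than 5 libraries, while 2.75% of all genes had one in 8 of 8. Hoxb7, Hoxb8, Hoxc9, Hoxc11 and Hoxd12 had no Sox9 peak in any library. An H3K4me3 peak was present in at least 1 of 8 libraries at 37 of 38 genes (97.4%), against 86.7% of all genes, in at least 4 of 8 at 12 genes (31.6%), against 48.9%, and in at least 5 of 8 at 5 genes (13.2%), against 36%. Hoxb1 had none. Presence in 3 or 4 of the 4 libraries of a time was found for Sox9 at 3 Hox genes at 10 days (7.89%, against 23.4% of all genes) and at 0 at 48 h (against 12.7%). For H3K4me3 it was found at 7 Hox genes at 10 days (18.4%, against 40%) and at 2 at 48 h (5.26%, against 26.4%). The median Hox gene had a Sox9 peak in 1.5 of 8 libraries, where the median over all genes was 2. For H3K4me3 both medians were 3 of 8.

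The 5 genes with Sox9 peaks in the most libraries were Hoxa3, Hoxa10, Hoxb3, Hoxb9 and Hoxd3. Hoxa3, which in the mouse is needed to form the thymus and parathyroids, spans 44.0 kb (chr6:52169059-52213067) and is the longest of the 38. It had 0, 0, 1 and 4 Sox9 peaks in the 10 d libraries, against 0, 2, 0 and 2 at 48 h. Its H3K4me3 peaks numbered 9, 2, 1 and 1 at 10 days, against 1, 1, 1 and 2 at 48 h, so Hoxa3 alone of the 38 carried H3K4me3 peaks in 8 of 8 libraries, which 8.58% of all genes did. Its 10 d replicate 1 stands apart with 9 peaks, and all other H3K4me3 libraries had 1 or 2. The Hoxa3 span contains Hoxa4, Hoxa5 and Hoxa6, and the share over all genes is not matched for length. In H3K4me3 48 h replicate 1 the only peak counted at Hoxa3 had its summit inside Hoxa6, 87 bp from the listed start of Hoxa6.

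Hoxb3 (chr11:96307101-96347930) and Hoxd3 (chr2:74711993-74748271), the other members of paralogue group 3, are also long genes that run across a neighbour. Hoxb3 had 4, 0, 2 and 1 Sox9 peaks at 10 days, against 0, 1, 0 and 3 at 48 h. Its H3K4me3 peaks numbered 4, 0, 6 and 2 at 10 days, against 0, 2, 1 and 1 at 48 h. Each group had at least 1 library with none. Hoxd3 had 2, 0, 1 and 1 Sox9 peaks at 10 days, against 0, 0, 2 and 1 at 48 h, and 5, 2, 2 and 1 H3K4me3 peaks at 10 days, against 0, 1, 0 and 0 at 48 h. The H3K4me3 libraries of the times overlap at Hoxd3 only through the value of 1. Over the 3 genes of group 3, a Sox9 peak was present in 14 of 24 pairs of a gene and a library (58.3%) and an H3K4me3 peak in 19 of 24 (79.2%). The other 12 paralogue groups ranged from 6.25% to 37.5% with Sox9 and from 12.5% to 50% with H3K4me3.

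Hoxa10 (chr6:52231197-52240854), which patterns the uterus and the lumbar spine in mice, had 1, 1, 0 and 1 Sox9 peaks at 10 days, against 0, 1, 1 and 0 at 48 h. Its H3K4me3 peaks numbered 1, 0, 0 and 1 at 10 days, against 0, 0, 1 and 0 at 48 h. Hoxb9 (chr11:96271330-96276595) had 1, 0, 0 and 1 Sox9 peaks at 10 days, against 1, 0, 1 and 0 at 48 h, and 1, 0, 1 and 0 H3K4me3 peaks at 10 days, against 0, 0, 1 and 0 at 48 h. At both genes the Sox9 antibody gave a peak in more libraries than H3K4me3 did, 5 against 3 of 8 at Hoxa10 and 4 against 3 of 8 at Hoxb9, a difference that did not pass (adjusted p = 1 for both, Fisher's exact test over all genes). No member had a Sox9 peak in at least 4 more libraries than an H3K4me3 peak, which 0.215% of all genes did.

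**Figure D2:**
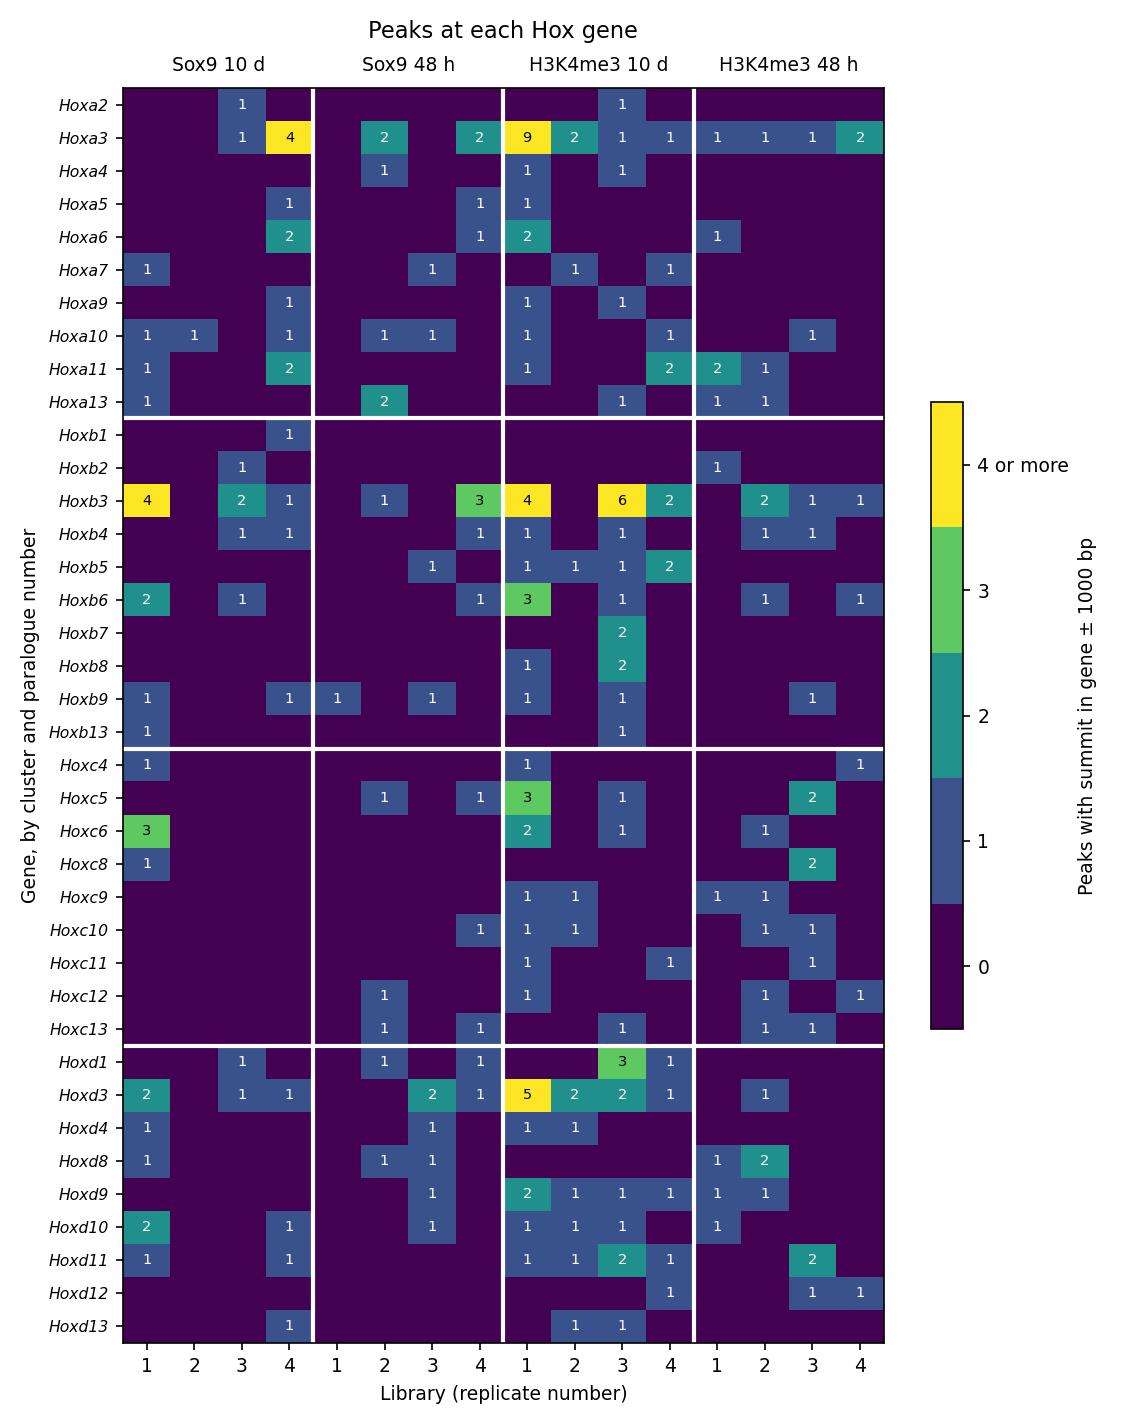
Number of peaks (colour and figure) at each of the 38 Hox genes (rows, by cluster and paralogue number) in each of the 16 libraries (columns, by group and replicate), counted in the gene body and 1000 bp on both sides. The long genes of paralogue group 3 hold the highest counts, up to 9 at Hoxa3, and most cells are empty.

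Between the times, no gene passed with either antibody. With 4 against 4 libraries the smallest unadjusted p of the exact test is 0.0286, so an adjusted p under 0.05 would need more than 57.1% of all genes tested to reach it, and a count of 0 says little at this size. For Sox9, 0 of 33 Hox genes tested and 0 of 17502 genes (0%) passed at an adjusted p of 0.05 (two-sided Fisher's exact test per gene, Benjamini-Hochberg over all genes with a peak), and 0 Hox genes were under an unadjusted p of 0.05, against 0.474% of all genes with more libraries at 10 days and 0.0229% with more at 48 h. For H3K4me3, 0 of 37 Hox genes and 0 of 18967 genes (0%) passed. Hoxb5 was under an unadjusted p of 0.05 with more libraries at 10 days (1 of 37, 2.70%), as were 0.59% of all genes, and 0 Hox genes were in the other direction, against 0.0316%.

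Hoxb5 (chr11:96303512-96306121), which acts in the nerve cells of the embryonic gut in mice, had 1, 1, 1 and 2 H3K4me3 peaks at 10 days, against 0, 0, 0 and 0 at 48 h (exact p = 0.0286, adjusted p = 1). Its groups do not overlap. The H3K4me3 lists held 30936 to 88496 peaks at 10 days and 25811 to 37208 at 48 h, so list lengths do overlap. With all lists thinned to 7706 peaks at random (mean of 20 draws), the difference at Hoxb5 was 21.2 percentage points of libraries, against 100 in the full lists. Thinning left out most peaks of every H3K4me3 list. A smaller difference would follow with equal lists too, so this value cannot tell the part of list length. The 5 H3K4me3 peaks of Hoxb5 were all at 1 step. Its Sox9 peaks numbered 0, 0, 0 and 0 at 10 days, against 0, 0, 1 and 0 at 48 h. Hoxd3 (above) and Hoxd11 were the other genes whose H3K4me3 peaks were in 3 or more additional libraries at 10 days, in 4 of 4 against 1 of 4 libraries each (exact p = 0.143, adjusted p = 1). In the thinned lists their differences were 22.5 points at Hoxd3 and 7.5 at Hoxd11, against 75 in the full lists, with the same limit as at Hoxb5. In all, 3 of 38 Hox genes (7.89%) had such a difference, against 4.49% of all genes, and 0 had one toward 48 h, against 0.503%. With Sox9, 0 Hox genes differed by 3 libraries toward 10 days, against 4.03% of all genes, and 0 toward 48 h, against 0.324%.

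Hoxd11 (chr2:74679558-74687016), a gene of the group that acts in early nephron formation, had 1, 1, 2 and 1 H3K4me3 peaks at 10 days, against 0, 0, 2 and 0 at 48 h. It had 1, 0, 0 and 1 Sox9 peaks at 10 days, against none at 48 h. With peaks counted only within 1000 bp of the gene ends, the H3K4me3 difference at Hoxd11 turned, at -25 percentage points of libraries, against 75 with the body. Its paralogue Hoxa11 (chr6:52242105-52245810) had 1, 0, 0 and 2 Sox9 peaks at 10 days, against 0 in each 48 h library. The H3K4me3 peaks of Hoxa11 numbered 1, 0, 0 and 2 at 10 days, against 2, 1, 0 and 0 at 48 h. Hoxc11 (chr15:102954526-102956701) had no Sox9 peak and 1, 0, 0 and 1 H3K4me3 peaks at 10 days, against 0, 0, 1 and 0 at 48 h. Over the 3 genes of group 11, a Sox9 peak was present in 4 of 12 pairs of a gene and a library at 10 days and 0 of 12 at 48 h. For H3K4me3 these were 8 of 12 at 10 days and 4 of 12 at 48 h. Over all genes the shares were 37.9% and 25.6% with Sox9 and 50.7% and 38.8% with H3K4me3, and this group was picked out after its values were seen. Hoxb7 (chr11:96285604-96290163), the gene of the ureteric bud, had 2 H3K4me3 peaks in 10 d replicate 3 and no peak in any other list.

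Between the antibodies, 0 of 38 Hox genes and 0 of 19873 genes (0%) passed at an adjusted p of 0.05 (two-sided Fisher's exact test, 8 against 8 libraries). Hoxd9 was under an unadjusted p of 0.05 with more H3K4me3 libraries (1 of 38, 2.63%), as were 2.55% of all genes. In the other direction there were 0 Hox genes, against 0.0151% of all genes. Hoxd9 (chr2:74697763-74700208) had 0 Sox9 peaks in every 10 d library and 0, 0, 1 and 0 at 48 h. Its H3K4me3 peaks numbered 2, 1, 1 and 1 at 10 days and 1, 1, 0 and 0 at 48 h. A peak was therefore present in 1 of 8 Sox9 and 6 of 8 H3K4me3 libraries (exact p = 0.0406, adjusted p = 1), and libraries of both antibodies held values of 0 and 1. Hoxa3, at 4 of 8 Sox9 against 8 of 8 H3K4me3 libraries, and Hoxc9 (chr15:102977032-102984444), at 0 of 8 against 4 of 8, were the other genes with at least 4 more H3K4me3 libraries (exact p = 0.0769 and adjusted p = 1 for both). In lists thinned to equal length the Sox9 minus H3K4me3 differences were -6.25 points at Hoxa3, -10.6 at Hoxc9 and -10.0 at Hoxd9, against -50, -50 and -62.5 in the full lists. Thinning by itself makes such differences smaller, so these values cannot tell the part of list length. Counted within 1000 bp of the gene ends only, the differences at these 3 genes were -25, -12.5 and -62.5 points. At least 4 more H3K4me3 than Sox9 libraries were present at 3 of 38 Hox genes (7.89%), against 7.62% of all genes. At Hoxc9 the H3K4me3 peaks numbered 1, 1, 0 and 0 at 10 days and 1, 1, 0 and 0 at 48 h. Of 102 Sox9 peaks in the clusters, 5 (4.90%) overlapped an H3K4me3 peak of the same pellet. For H3K4me3 peaks of the other pellets of the same time the share was 6.86% of 306 pairs. Over all Sox9 peaks of a list these shares averaged 2.98% for the same pellet (1.79% to 4.73% by library) and 3.03% for the other pellets.

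Peaks above the lowest height were few. With Sox9, 3 of 102 cluster peaks (2.94%) stood at 2 or more steps, against 3.35% of all Sox9 peaks, and they were at Hoxd11 in 10 d replicate 1, at Hoxa13 in 48 h replicate 2 and at Hoxb5 in 48 h replicate 3. These 3 of 38 genes (7.89%) compare with 13.7% of all genes. With H3K4me3, 18 of 171 cluster peaks (10.5%) stood at 2 or more steps, against 4.68% of all H3K4me3 peaks, at 14 of 38 genes (36.8%), against 33% of all genes. Of those 18, 10 came from 10 d replicate 1, which had the longest H3K4me3 list. The peaks of that library at chr11:96349618-96349748 and chr15:102963784-102963942 lay at no Hox gene, and the rest of the 18 lay at the 14 genes. The 2 peaks at 3 steps were one of that library at Hoxa9 (chr6:52226220-52226327), a gene of blood stem cells, and one of 10 d replicate 4 at Hoxb3 (chr11:96345556-96345688). At 48 h, peaks of 2 steps were at Hoxa6 (inside Hoxa3) and Hoxa13 in replicate 1 and at Hoxd8 and Hoxd9 in replicate 2. The remaining genes with such a peak were Hoxb6, Hoxb8, Hoxc5, Hoxd1, Hoxd3, Hoxd10 and Hoxd11, all at 10 days.

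Library by library, the members known here only for such a peak were otherwise sparse. Hoxa9 had 0, 0, 0 and 1 Sox9 peaks at 10 days and none at 48 h, and 1, 0, 1 and 0 H3K4me3 peaks at 10 days, against none at 48 h. Hoxa6 had 0, 0, 0 and 2 Sox9 peaks at 10 days, against 0, 0, 0 and 1 at 48 h, and 2, 0, 0 and 0 H3K4me3 peaks at 10 days, against 1, 0, 0 and 0 at 48 h. At Hoxa6 the peaks of an antibody at a time all came from 1 library. Hoxa13, which shapes the digits and the urogenital tract in mice, had 1, 0, 0 and 0 Sox9 peaks at 10 days, against 0, 2, 0 and 0 at 48 h, and 0, 0, 1 and 0 H3K4me3 peaks at 10 days, against 1, 1, 0 and 0 at 48 h. Hoxb6 had 2, 0, 1 and 0 Sox9 peaks at 10 days, against 0, 0, 0 and 1 at 48 h, and 3, 0, 1 and 0 H3K4me3 peaks at 10 days, against 0, 1, 0 and 1 at 48 h. The times overlap at each of these genes.

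Hoxb8, whose loss in mice causes excessive grooming, had H3K4me3 peaks only in 10 d replicate 1 (1 peak) and replicate 3 (2 peaks). Hoxc5 had no Sox9 peak at 10 days, against 0, 1, 0 and 1 at 48 h, and 3, 0, 1 and 0 H3K4me3 peaks at 10 days, against 0, 0, 2 and 0 at 48 h. Hoxd1, an anterior gene expressed in pain-sensing neurons in mice, had 0, 0, 1 and 0 Sox9 peaks at 10 days, against 0, 1, 0 and 1 at 48 h. Its H3K4me3 peaks numbered 0, 0, 3 and 1 at 10 days, against none at 48 h. For H3K4me3 at Hoxd1 and at Hoxb8, 2 of the 4 libraries of 10 days were at 0, as were all 4 of 48 h. Hoxd8 had no H3K4me3 peak at 10 days, against 1, 2, 0 and 0 at 48 h, and 1, 0, 0 and 0 Sox9 peaks at 10 days, against 0, 1, 1 and 0 at 48 h. Hoxd10, which acts in motor neurons of the hindlimb in mice, had 2, 0, 0 and 1 Sox9 peaks at 10 days, against 0, 0, 1 and 0 at 48 h, and 1, 1, 1 and 0 H3K4me3 peaks at 10 days, against 1, 0, 0 and 0 at 48 h. The 20 members that met none of these criteria had at most 3 peaks in any list.

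Merged within an antibody, with 1 bp of overlap, the cluster peaks formed 91 Sox9 regions and 146 H3K4me3 regions. A peak of 2 or more libraries was present in 11 Sox9 regions (12.1%), against 3.27% of all Sox9 regions of the genome. It was present in 18 H3K4me3 regions (12.3%), against 5.24%. The clusters are also denser in peaks than the genome, and its part in these shares was not tested. Between the times, a region in 2 or 3 of 8 libraries cannot have an exact p under 0.143, so no call was possible for any of the 11 Sox9 regions or for 16 of the 18 H3K4me3 regions. Those in 4 libraries were divided 3 to 1 and 2 to 2. Over the genome, 0% of 7042 recurrent Sox9 and 0% of 17237 recurrent H3K4me3 regions passed at an adjusted p of 0.05, and 0.0568% and 0.145% were under an unadjusted p of 0.05. No Sox9 region recurred in more than 2 of 8 libraries. The 6 that come first by chromosome and position among those in 2 libraries lay at Hoxd10 (chr2:74692450-74692657), Hoxd8 (chr2:74704753-74704957), the end of Hoxd3 (chr2:74746989-74747318), Hoxd1 (chr2:74762894-74763090), Hoxa3 (chr6:52170001-52170187) and Hoxa11 (chr6:52245353-52245563). Leaving out 1 library at a time left 6 to 11 recurrent Sox9 regions and 9 to 18 recurrent H3K4me3 regions, with 6 without Sox9 10 d replicate 1 or 4, 7 without Sox9 48 h replicate 2 or 3, and 9 without H3K4me3 10 d replicate 1.

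The places with a peak in the most H3K4me3 libraries were at Hoxd11 (chr2:74682716-74683181, 3 of 4 at 10 days and 1 of 4 at 48 h) and at Hoxd9 (chr2:74697976-74698472, 2 of 4 at each time). Regions in 3 libraries lay at Hoxb4, inside Hoxb3 (chr11:96318894-96319379, 1 of 4 at 10 days and 2 of 4 at 48 h), and at Hoxa13 (chr6:52260228-52260585, 1 of 4 and 2 of 4). Among the 14 regions in 2 libraries, the first by position were at Hoxd12 (chr2:74677273-74677534) and at the Hoxd3 promoter shown above (chr2:74711818-74711978). With all 16 lists merged, a count added after seeing the data, the same 4 places were those with a peak in 5 of 16 libraries, each with at least 1 Sox9 library among them, and no cluster region had more. Sox9 10 d replicates 3 and 4 had a peak at the Hoxb4 region, Sox9 10 d replicate 1 at Hoxd11, Sox9 48 h replicate 3 at Hoxd9, and Sox9 10 d replicate 1 and 48 h replicate 2 at Hoxa13. As merged over the 16 lists, all 4 regions lay downstream of a listed start, at 213 to 709 bp from that of Hoxd9, 295 to 670 bp from that of Hoxa13, 390 to 858 bp from the nearer of both starts of Hoxd11 and 627 to 1112 bp from that of Hoxb4. A region at Hoxa11 (chr6:52245339-52245563), 247 to 471 bp from its start, and the stretch between Hoxb13 and Hoxb9 (chr11:96251486-96251848) had a peak in 4 of 16 libraries. Of 212 such merged regions in the clusters, 38 (17.9%) had a peak in 2 or more lists, against 7.27% of those of the genome.

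**Figure D3:**
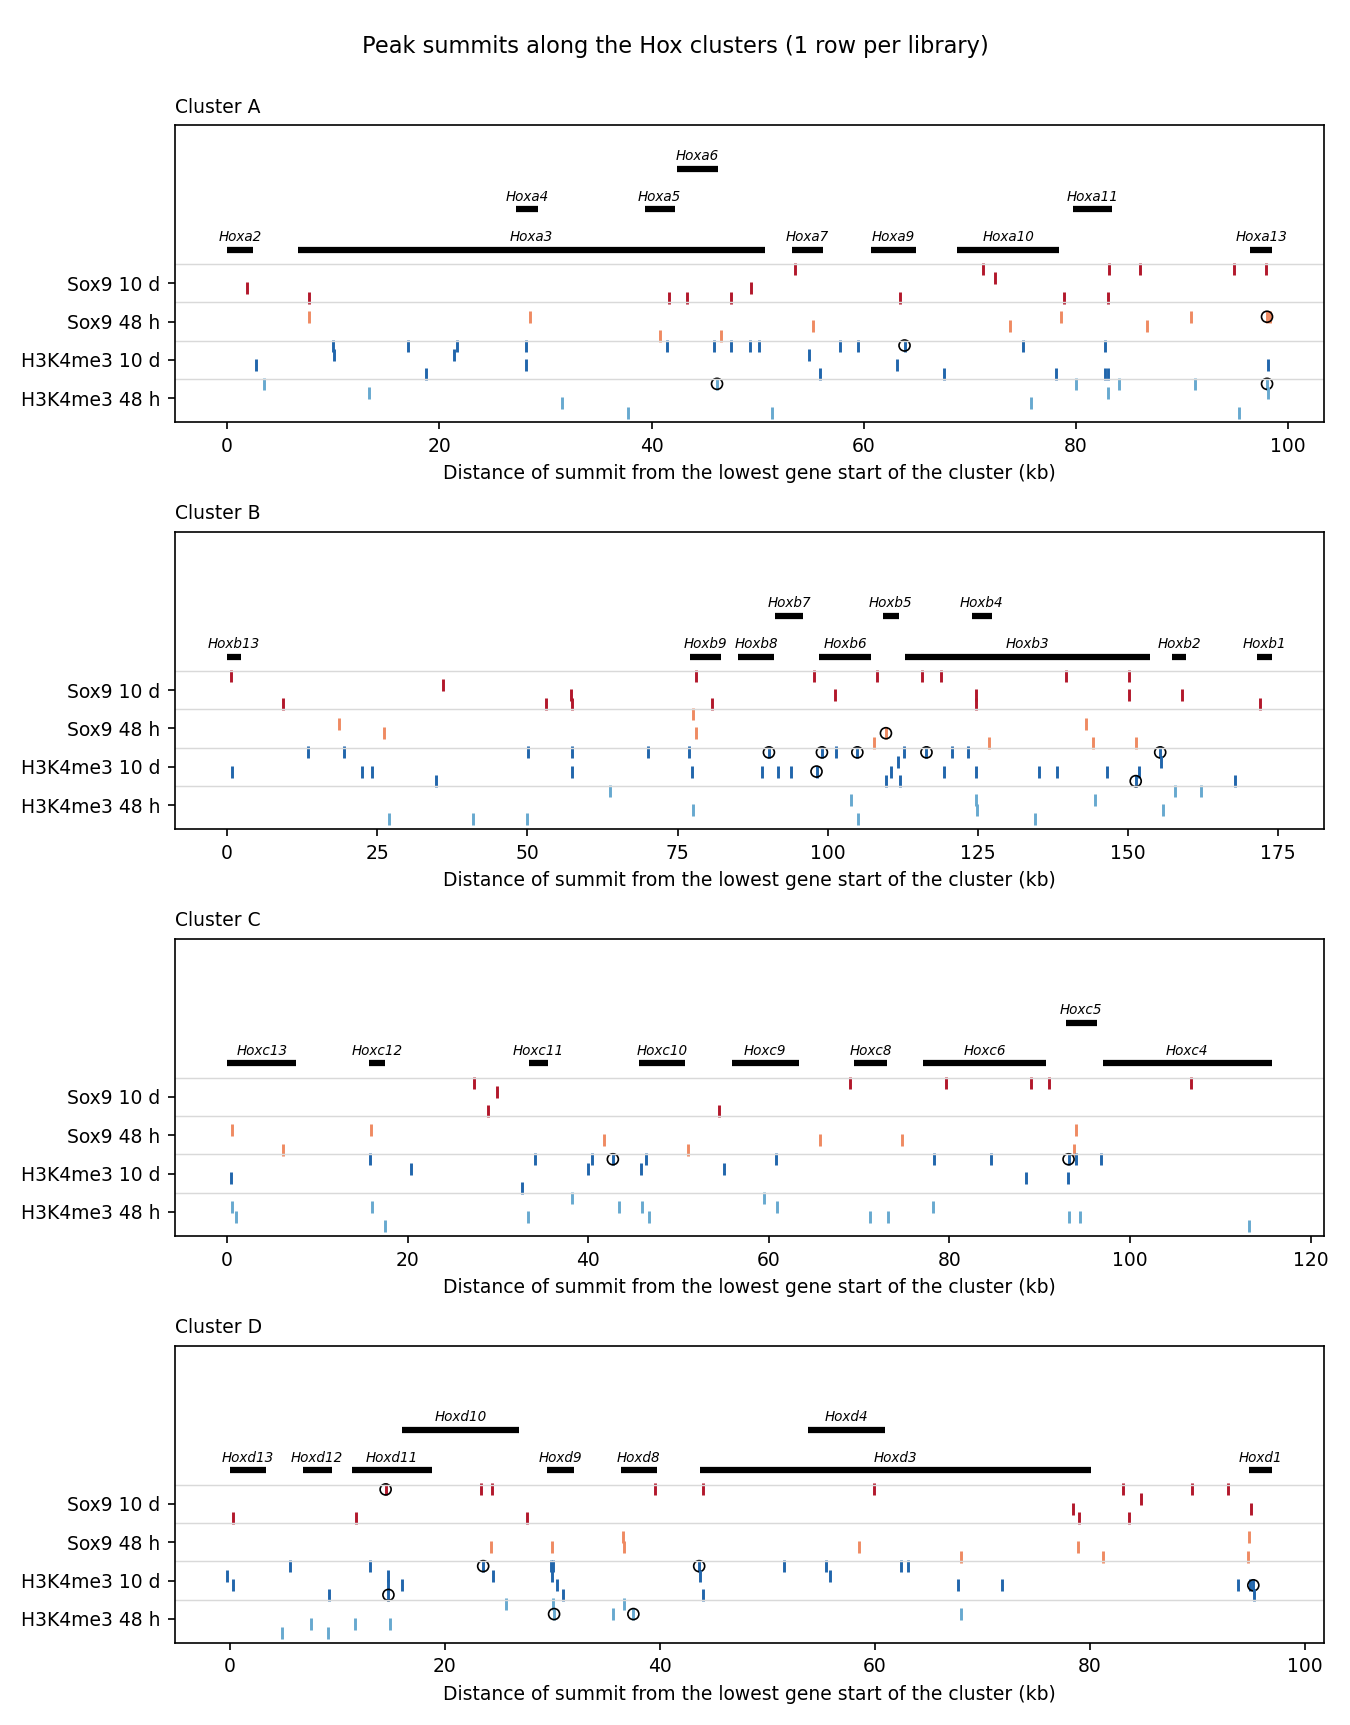
Summits of all peaks in the 4 Hox clusters, by distance from the lowest gene start of the cluster (x, kb), 1 row per library within each group, with gene bodies as black bars. Black circles mark peaks of 2 or more steps. Summits are spread along the clusters, and vertical alignments across libraries are few, such as those at Hoxd11, Hoxd9, Hoxb4 and Hoxa13.

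Over the whole length of the clusters, A and D held the most peaks per length and C the fewest Sox9 peaks, with libraries of different clusters overlapping. Cluster A (chr6:52162417-52260880, 10 genes) had 3.26 ± 2.02 times the genome density with Sox9 and 3.24 ± 1.55 times with H3K4me3 (SD, n = 8 each). Cluster D (chr2:74668225-74765142, 9 genes) had 3.37 ± 2.55 times with Sox9 and 3.31 ± 1.06 times with H3K4me3 (SD, n = 8 each). Cluster B (chr11:96194316-96368254, 10 genes), which includes the long gap between Hoxb13 and Hoxb9, had 2.38 ± 1.22 times with Sox9 and 2.07 ± 0.876 times with H3K4me3 (SD, n = 8 each). Cluster C (chr15:102921131-103036856, 9 genes) had 1.93 ± 1.66 times with Sox9 and 2.42 ± 1.39 times with H3K4me3 (SD, n = 8 each). Between any 2 clusters the Sox9 means differed by less than the larger of their SDs, and so did the H3K4me3 means except those of D and B.

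Library by library, cluster B lay above the genome in 16 of 16 lists (lowest ratio 1.00), clusters A and D in 15 and cluster C in 12. Cluster D was denser than cluster B in 13 of 16 lists and denser than cluster C in 12, with C denser in 3. Cluster A was denser than cluster B in 12. Gene windows alone, a count chosen after seeing the data, leave out the stretches between genes. In these windows cluster B was above cluster D in 4 of 8 Sox9 and 2 of 8 H3K4me3 lists. The Sox9 ratios to the genome were 3.47, 3.50, 1.48 and 3.39 for A, B, C and D, so B was not below A and D. Those of H3K4me3 were 3.30, 2.47, 2.91 and 3.90. At 10 days cluster C held 6, 1, 0 and 2 Sox9 peaks, against 0, 3, 3 and 3 at 48 h. A Sox9 peak at a cluster C gene was present in 1 of the 4 libraries of 10 days, replicate 1, with 3 of 9 genes, and in replicates 2 and 4 at 48 h, with 3 of 9 genes each. The H3K4me3 peaks of cluster C numbered 11, 4, 3 and 1 at 10 days, against 2, 6, 7 and 2 at 48 h, and those groups overlap. Cluster D held 10, 6, 9 and 5 H3K4me3 peaks at 10 days, against 3, 4, 3 and 2 at 48 h, and these do not overlap. Relative to the genome, the cluster D values were 4.01 ± 1.02 at 10 days and 2.61 ± 0.548 at 48 h (SD, n = 4 each), with overlapping libraries. The H3K4me3 lists had a higher median length at 10 days, with 30936 to 88496 peaks, against 25811 to 37208 at 48 h, and these ranges overlap.

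**Figure D4:**
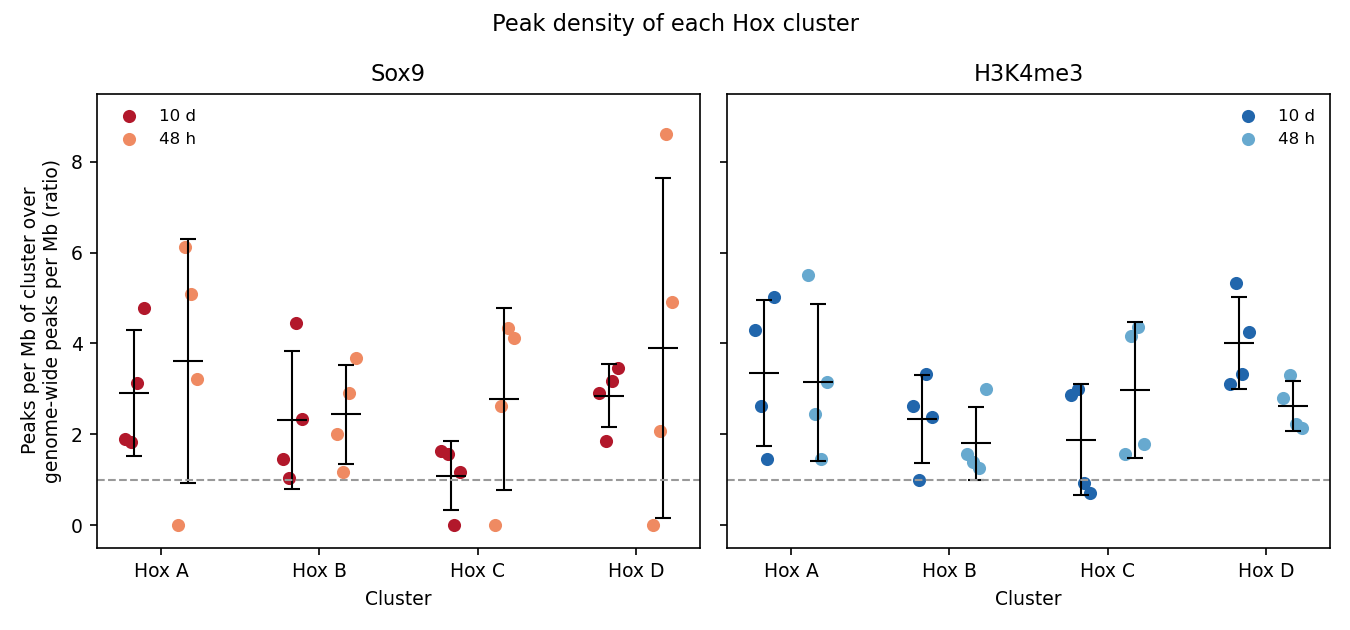
Peaks per Mb in each Hox cluster over the genome-wide value of the same library (y, ratio), for Sox9 (left) and H3K4me3 (right) at 10 days and 48 h, 1 point per library with mean and SD (n = 4). The dashed line is the genome. Cluster means lie between 1.09 and 4.01, and the libraries of different clusters overlap.

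Low paralogue numbers (1 to 8, anterior and central, 22 genes) and high ones (9 to 13, posterior, 16 genes) differed in the share of genes with a peak by less than the spread between libraries. Per length of gene windows, low genes were below high ones in 6 of 8 Sox9 and 5 of 8 H3K4me3 libraries. With Sox9, 27.3% ± 18.6 of low and 23.4% ± 23.6 of high genes had a peak at 10 days, and 22.7% ± 17 of low and 17.2% ± 9.38 of high genes at 48 h (SD, n = 4 each). The difference was 3.84 ± 22.0 points at 10 days and 5.54 ± 15.6 points at 48 h, and low genes were below high ones in 5 of 8 libraries although the mean is above. Sox9 10 d replicate 3 and 48 h replicate 4, with 36.4 and 28.4 points toward low genes, set these means. Without the first of them the 10 d mean was -7.01 points, and without the second the 48 h mean was -2.08.

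With H3K4me3, 43.2% ± 21.2 of low and 50% ± 15.3 of high genes had a peak at 10 days, and 22.7% ± 6.43 of low and 32.8% ± 14.8 of high genes at 48 h (SD, n = 4 each). The difference was -6.82 ± 7.55 points at 10 days and -10.1 ± 11.3 points at 48 h, each less than 1 SD from 0, and low genes were below high ones in 6 of 8 libraries. Per length of gene windows, low genes had 2.51 ± 0.756 and high genes 4.47 ± 1.38 times the genome density with H3K4me3 (SD, n = 8 each). These means differed by more than either SD. The H3K4me3 ratios were 2.94 ± 0.601 and 4.34 ± 1.19 at 10 days, and 2.08 ± 0.695 and 4.60 ± 1.72 at 48 h (SD, n = 4 each). Low genes were above high ones by this measure in 3 of 8 H3K4me3 libraries and in 2 of 8 Sox9 libraries. With Sox9 the ratios were 2.81 ± 2.32 for low and 3.34 ± 2.02 for high genes (SD, n = 8 each). Median gene lengths were 3.58 kb for low and 3.99 kb for high genes, and the 3 long genes of paralogue group 3 are all low. With the boundary between 6 and 7, the H3K4me3 difference at 10 days turned, at 4.48 points.

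**Figure D5:**
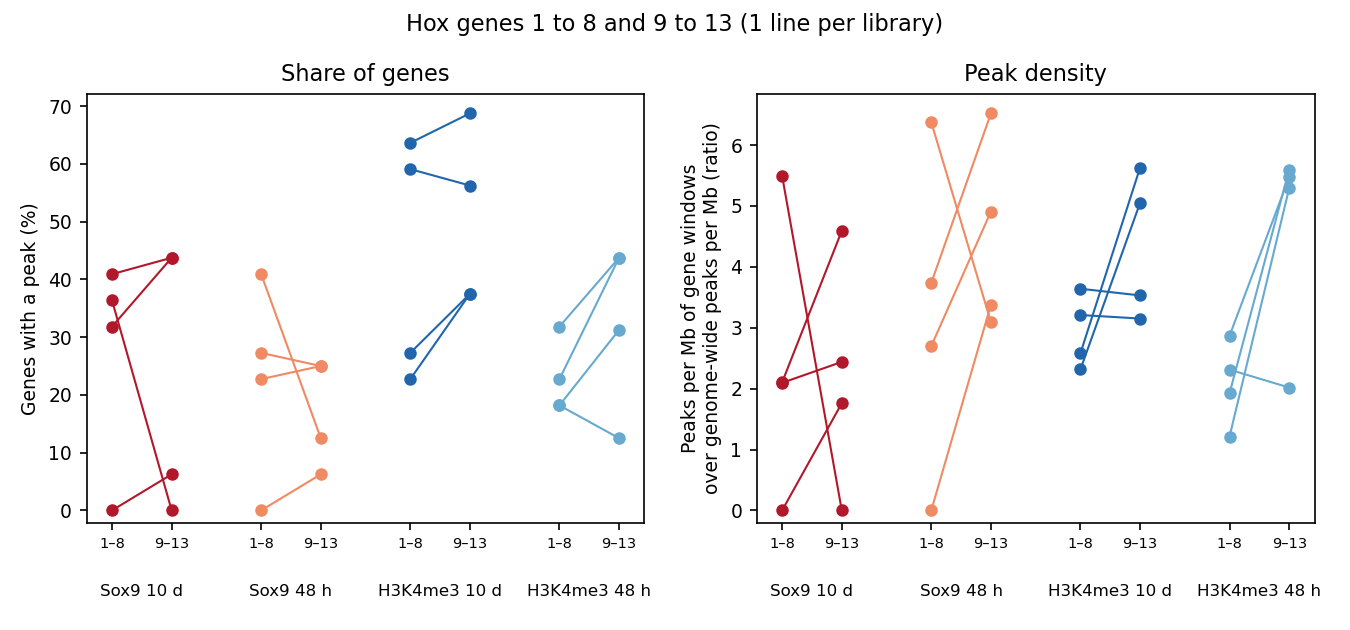
Share of genes with a peak (left, %) and peaks per Mb of gene windows over the genome-wide value (right, ratio) for Hox genes 1 to 8 and 9 to 13, with 1 line per library and 4 libraries per group. The lines run both ways for Sox9, and 6 of 8 H3K4me3 lines run upward to the high numbers on the left.

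Genes that work with or beside the Hox genes gave a frame for these values. In the 3 comparisons 0% of all genes tested passed, so none of the 9 lists could hold a gene that did. The ParaHox and neighbouring homeobox genes, the closest relatives, had a Sox9 peak in 25.0% and an H3K4me3 peak in 37.5% of pairs of a gene and a library, with 0 of 9 and 3 of 9 in at least 4 of 8 libraries and densities of 3.64 and 3.77 times the genome. Among them Evx1, beside cluster A, had an H3K4me3 peak in 7 of 8 libraries and a Sox9 peak in 3. Over all protein-coding genes, a peak in at least 4 of 8 libraries was present at 29.5% with Sox9 and 48.9% with H3K4me3.

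Polycomb and trithorax regulators, which set the state of Hox chromatin, had a Sox9 peak in 43.4% and an H3K4me3 peak in 58.6% of pairs. Of these 19 genes, 7 and 13 had one in at least 4 of 8 libraries, against 29.5% and 48.9% of all genes. Per length they had 1.88 times the genome density with Sox9 and 1.79 times with H3K4me3. Of 12 genes of the embryonic kidney that act beside the Hox11 group, 7 had a Sox9 peak and 10 an H3K4me3 peak in at least 4 of 8 libraries. Per length these 12 genes had 1.55 times the genome density with Sox9 and 1.66 times with H3K4me3. Pax2 had a Sox9 peak in 7 and Eya1 in 6 of 8 libraries, and both had H3K4me3 in 8 of 8. These 2 genes span 91669 and 142083 bp, and the part of gene length in such counts was not tested. The 8 genes flanking the clusters had a Sox9 peak in 40.6% and an H3K4me3 peak in 67.2% of pairs. Their density was 0.895 times that of the genome with Sox9 and 1.17 times with H3K4me3. Of the cell type markers, an H3K4me3 peak was present in 67.2% of pairs for 8 tubule genes, 65.6% for 4 endothelial, 71.9% for 4 stromal, 40.6% for 4 immune and 58.3% for 3 podocyte genes. Per length the H3K4me3 densities were 2.11 times the genome for the tubule, 1.07 for the endothelial, 7.17 for the stromal, 1.06 for the immune and 1.59 for the podocyte genes, so the order of the lists differs between the measures. Over the 9 lists the densities spanned 0.798 to 7.73 times the genome with Sox9 and 1.06 to 7.17 with H3K4me3. The 4 stromal genes were highest, followed by the ParaHox list at 3.64 and 3.77. All other lists stood at 1.89 or less with Sox9 and 2.11 or less with H3K4me3. The whole Hox clusters, at 2.65 ± 1.32 and 2.64 ± 0.279 (SD, n = 8 each), lay above those and below the stromal and ParaHox lists. The measures are unlike, since the list densities are of gene windows only. In gene windows the means of single Hox clusters ran from 1.48 (C) to 3.50 (B) with Sox9. With H3K4me3 they ran from 2.47 (B) to 3.90 (D), so the place of the Hox genes in this order depends on the measure.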

How the data were processed

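Sox9-lineage kidney cells were profiled by CUT&RUN in 24 samples, and each of 16 antibody libraries gave a list of peaks. The 8 inputs were left out. Per the submitters' processing notes, the tools named are Bowtie, Bowtie2, MACS3 and Partek 10 and the build is mm10; their settings were not given in the sources. In the deposited lists the fold enrichment is a ratio given by the authors, read here as summit pileup over local background. Each peak also carries a p-value and a q-value, both deposited on the −log10 scale. The deposited score is a display value and was not used. Pileup and background were solved from fold and p-value, as heights in steps. The depth of the libraries is unknown, so precision rests on 4 replicates per group.

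Autosomal and sex-chromosome peaks were set against RefSeq genes of GRCm38.p6, the assembly of mm10. Presence per gene was tested with two-sided Fisher's exact tests and Benjamini-Hochberg adjustment over all genes with a peak, and shares and densities were given as mean and SD without a test. The tests were tried on simulated data. Members and lists were chosen with earlier results of these data known. Named genes were those with Sox9 in at least 4 or H3K4me3 in at least 5 of 8 libraries, a peak of 2 or more steps, or a difference of at least 3 libraries between times or 4 between antibodies. The genes of paralogue group 11 and Hoxb7 were named beside them for their role in the kidney, after their values were seen. Sox9 and H3K4me3 libraries of 1 time and number share a pellet (per the labels' protocols) and so form pairs. After removing group means, paired libraries had correlations of -0.0245 to 0.0429. Alternatives were other windows, a minimum −log10 q of 5, 2 or more steps, equal list lengths at random, other boundaries, a replicate block and leaving out libraries. The software was SciPy 1.17.1, NumPy 2.4.6 and pandas 2.3.3 for the values and Matplotlib 3.10.9 for plots, in Python 3.11.15. Promoters are from RefSeq. Of the 10 gene lists made, 1 is not reported here.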

Additional observations from a re-analysis of the deposited data

How the results depend on the processing

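No Hox gene passed in the 3 comparisons of presence (0 called) under any alternative run, which for the times says nothing of stability, since 4 against 4 libraries could hardly pass. Peaks of 2 or more steps left Hox shares of 0.658% (Sox9 10 d), 1.32% (Sox9 48 h), 7.24% (H3K4me3 10 d) and 3.29% (H3K4me3 48 h). They gave H3K4me3 ratios of 5.49 for the clusters together and of 7.70, 3.86, 0.871 and 11.6 for A, B, C and D. These ratios rest on only 18 H3K4me3 peaks in all clusters and libraries. The Sox9 ratio was 0 for C, with 3 such Sox9 peaks in all clusters. The difference between low and high genes was 4.40 points for H3K4me3 10 d. At equal list lengths of 7706 peaks (mean of 20 random draws) the shares were 6.28% (Sox9 10 d), 9.14% (Sox9 48 h), 8.59% (H3K4me3 10 d) and 7.83% (H3K4me3 48 h), so the order of the Sox9 times and that of the antibodies at 48 h turned, and the H3K4me3 10 d difference of low and high genes was 0.661 points. Within 1000 bp of gene ends only, the H3K4me3 48 h share was 16.4%, the Sox9 ratio of B 4.68, the H3K4me3 ratio of all clusters 4.13 and those of B, C and D 3.07, 4.10 and 5.27, and the H3K4me3 difference at Hoxd11 reversed (-25 points). In gene windows, chosen after seeing the data, the H3K4me3 ratio of all clusters was 3.12. Groups 1 to 6 against 7 to 13 gave 4.48 points for H3K4me3 10 d. Without 1 library at a time, 6 to 11 Sox9 and 9 to 18 H3K4me3 regions recurred. The −log10 q filter of 5 changed no share or count, and left the densities at 2.65 (Sox9) and 2.64 (H3K4me3). The cause of these shifts was not tested. Of 524 alternative values, 471 were counted as unmoved. These were counts equal or close to the main one, differences that kept their direction and side, and values that moved by less than 1 SD. A value could change sign within 1 SD and still be counted here. Many of the 471 are counts of called genes that were 0 in every setting, so the tally is no measure of stability.

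With the pellet or the replicate number as a block (replicate block, exact sign tests over pairs), 0 Hox genes were called in each comparison, and 0 were under an unadjusted p of 0.05, against 1 without the block for H3K4me3 between times and for the antibodies. Over 4 pairs the sign test cannot go below 0.125, so it could call nothing between the times, and over 8 pairs its lowest p is 0.00781. Between the times the numbers pair nothing by the labels, and deviations of same-numbered libraries correlated between -0.0348 and 0.0213. An absent peak says little, since 92.5% to 97.8% of the peaks of a list stood at the lowest height. The depth of the libraries is unknown, and its part in this was not tested.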
